A study of Mus musculus with 3 samples.

Results

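The Myc, Max and Mxd network is a set of 9 transcription factor genes, and its members were taken by symbol from the gene list of each matrix. The activators were Myc, Mycn and Mycl, the shared partner was Max, and the repressors were Mxd1, Mxd3, Mxd4, Mxi1 and Mnt. All 9 were found among the 32285 genes listed. Of these, 8 averaged at least 2 CPM (a gene's UMIs scaled to the same fixed total in each library) over the 3 libraries, Mycl falling under that floor, and 4 had a mean of at least 10 CPM.

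All of these proteins are basic helix-loop-helix leucine zipper factors that bind DNA as dimers, and Max is the partner they compete for. Dimers of a Myc protein with Max recruit histone acetyltransferase complexes to E-box sequences and raise transcription of genes for growth, ribosome production and metabolism. Dimers of Mnt or of a Mxd protein with Max recruit the Sin3 and histone deacetylase corepressor complex to the same sequences. In mouse embryonic stem cells Myc and Mycn act redundantly in self-renewal, and leukemia inhibitory factor (LIF) signalling through Stat3 is a known input to Myc. Myc messenger RNA and protein are both short-lived, and Myc messenger RNA is a classic example of a transcript that accumulates when translation is blocked in many cell types.

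The cells were E14, an established line of mouse embryonic stem cells (129/Ola background), cultured in serum with LIF. From 24 h after seeding, one culture received cycloheximide, which blocks translation elongation, at 250 µg/mL in 0.007% ethanol for 3 h, another received the same for 6 h, and the control received ethanol alone for 6 h. Each of the 3 groups had 1 library, so every difference below is between libraries and has no replicate check, no test was possible, and no ethanol control of 3 h was run. Detached cells were frozen and thawed before 10x Genomics 3' v3 droplet barcoding, which tags each captured polyadenylated RNA with a unique molecular identifier (UMI).

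Cells were barcodes with at least 15000 UMIs and 1 to 20% mitochondrially encoded UMIs. The control held 2187 cells, the 3 h library 1739 and the 6 h library 2554, with 106842407 to 140321458 UMIs in them. The median cell held 43160 UMIs in the control, 51726 after 3 h and 46200 after 6 h, and the mitochondrial share was 4.57%, 3.51% and 2.94%. Libraries shared 1 to 3 cell barcodes pairwise, and the lower mitochondrial limit left out 62 control barcodes, against 1 after 3 h and 8 after 6 h. All 9 stem cell markers, Pou5f1, Sox2 and Nanog among them, were at 57.7 CPM or more in every library, and their summed level was 7201, 8165 and 7281 CPM in the control, 3 h and 6 h libraries. Of the markers of other cell types, the neural list had the highest sum, 74.7, 49.6 and 28.4 CPM, mostly Tubb3, and its part in the results was not tested. Sums for primitive endoderm, trophoblast, mesoderm, fibroblast and 2-cell-like markers were at most 12.5, 31.2, 5.02, 2.48 and 0.592 CPM, with Elf5, Col3a1, Postn, Lum and Zfp352 at 0.

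The members lie on 8 chromosomes of GRCm38 in the GENCODE M21 annotation, where each is a protein-coding gene. Myc spans 61985391 to 61990374 on the plus strand of chromosome 15, Mycn 12936093 to 12941914 on the minus strand of chromosome 12, and Mycl 122995652 to 123002485 on the plus strand of chromosome 4. Max spans 76937269 to 76962201 on the minus strand of chromosome 12. Mxd1 spans 86647042 to 86669161 on the minus strand of chromosome 6, Mxd3 55325168 to 55329823 on the minus strand of chromosome 13, and Mxd4 34173883 to 34187720 on the minus strand of chromosome 5. Mxi1 spans 53310518 to 53375810 on the plus strand of chromosome 19, and Mnt 74830920 to 74845725 on the plus strand of chromosome 11. Max and Mxd1 each overlap an unconfirmed transcript on their own strand, and Mxd3, Mxd4 and Mxi1 overlap genes on the opposite strand. How the counting treated overlaps is not given in the sources used here. The opposite-strand neighbour of Mxd3, Prelid1, stood at 234, 205 and 195 CPM in the control, 3 h and 6 h libraries.

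Promoter windows of 300 bases, from 250 before to 50 after a transcription start, were taken from RefSeq on GRCm38.p6 and searched on both strands for 4 short motifs. The table held 10 windows for 8 of the 9 members, and Myc had no entry. The E-box CACGTG, the sequence that the network itself binds, occurred in 3 of the 8 genes (Max, Mxd4 and Mnt) and in 7.15% of all 32851 promoters. The following stretches show these E-boxes in capitals, written 5′ to 3′ on the strand of the gene. The first is on the minus strand at chr12:76962239-76962278, the second on the minus strand at chr5:34187897-34187956 and the third on the plus strand at chr11:74830774-74830833.
Max: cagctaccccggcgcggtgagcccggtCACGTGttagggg
Mxd4: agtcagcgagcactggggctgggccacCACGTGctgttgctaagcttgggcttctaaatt
Mnt: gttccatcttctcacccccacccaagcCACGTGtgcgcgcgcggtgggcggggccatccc
The Max E-box lies across the RefSeq start, with its first base at -3 (counted from that start, which is upstream of the GENCODE start), while those of Mxd4 and Mnt begin at -219 and -123.

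Other motifs occurred in the windows of Mycn, Mxd1 and Mxd4. The E2F-type sequence TTGGCGC occurred 2 times in the Mycn window, in no other member's window, and in 2.45% of all promoters. The CCAAT sequence occurred 4 times in the Mxd1 window, 2 times in the Mxd4 window, and in 37.4% of all promoters. The 2 stretches below lie on the minus strand at chr12:12941917-12942086 for Mycn and at chr6:86669170-86669409 for Mxd1, and their capitals mark TTGGCGC in Mycn and CCAAT in Mxd1.
Mycn: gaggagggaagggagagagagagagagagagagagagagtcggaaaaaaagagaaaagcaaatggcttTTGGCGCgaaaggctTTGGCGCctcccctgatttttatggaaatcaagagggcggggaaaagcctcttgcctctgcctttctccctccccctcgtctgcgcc
Mxd1: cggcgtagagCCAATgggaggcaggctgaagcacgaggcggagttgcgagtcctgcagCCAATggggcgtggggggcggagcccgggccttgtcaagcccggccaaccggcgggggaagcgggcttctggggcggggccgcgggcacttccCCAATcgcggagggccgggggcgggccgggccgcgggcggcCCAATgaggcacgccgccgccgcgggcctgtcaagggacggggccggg
The STAT-type sequence TTCNNNGAA was in none of the 10 windows and in 8.30% of all promoters. None of the searched motifs overlaps another in these stretches, and a match is a run of letters, with no evidence here that a factor was bound.

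Myc, the founding member of the family, was at 35.8 CPM in the control, 25.6 CPM after 3 h and 6.78 CPM after 6 h. These levels came from 3989, 2732 and 951 UMIs, and their 95% exact Poisson intervals (34.7 to 36.9, 24.6 to 26.5 and 6.35 to 7.22) did not overlap. All intervals in the text are at 95% and cover counting error only. The control was the highest and the 6 h library the lowest by a wide step. Myc was 1.40-fold lower after 3 h than in the control, a log2 ratio of -0.49 (exact conditional binomial interval -0.56 to -0.41). After 6 h it was 5.28-fold lower than in the control (log2 ratio -2.40, interval -2.50 to -2.30) and 3.77-fold lower than after 3 h (log2 ratio -1.92, interval -2.02 to -1.81). In free RNA, taken from barcodes with 10 to 100 UMIs, Myc was at 39.2, 22.7 and 4.08 CPM in the same order, from 141, 75 and 16 UMIs. These values were close to the level in cells for the control and 3 h libraries. The 6 h value was below it, but 16 UMIs are too few to place it well.

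Mycn, the paralogue expressed in embryonic and neural progenitors, was at 29.7 CPM in the control, 29.8 CPM after 3 h and 10.8 CPM after 6 h. The control and 3 h intervals (28.7 to 30.7 and 28.7 to 30.8) overlapped almost fully, and the 6 h interval (10.3 to 11.4) lay below both. After 3 h the interval of the log2 ratio to control ran from -0.07 to 0.07. After 6 h Mycn was 2.75-fold lower than in the control, a log2 ratio of -1.46 (interval -1.55 to -1.37), and the log2 ratio of 6 h to 3 h was also -1.46 (interval -1.55 to -1.37). The scaling sets where 0 lies: factors from the trimmed mean of M values (TMM) shift every log2 ratio to control by -0.17 after 3 h and -0.29 after 6 h, and mean UMIs per cell shift it by 0.27 and 0.11. After 3 h these scalings gave Myc ratios of -0.66 and -0.22, both below 0, and Mycn ratios of -0.17 and 0.27, so the direction of Mycn after 3 h depended on the scaling. Mycl, the third paralogue, was at 1.88, 1.83 and 2.07 CPM, with overlapping intervals (1.64 to 2.16, 1.58 to 2.10 and 1.84 to 2.33), and its 3 log2 ratios had intervals that included 0. The retroposed Mycs, a related gene that is not a member, had 0 UMIs in all cells.

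**Figure D1:**
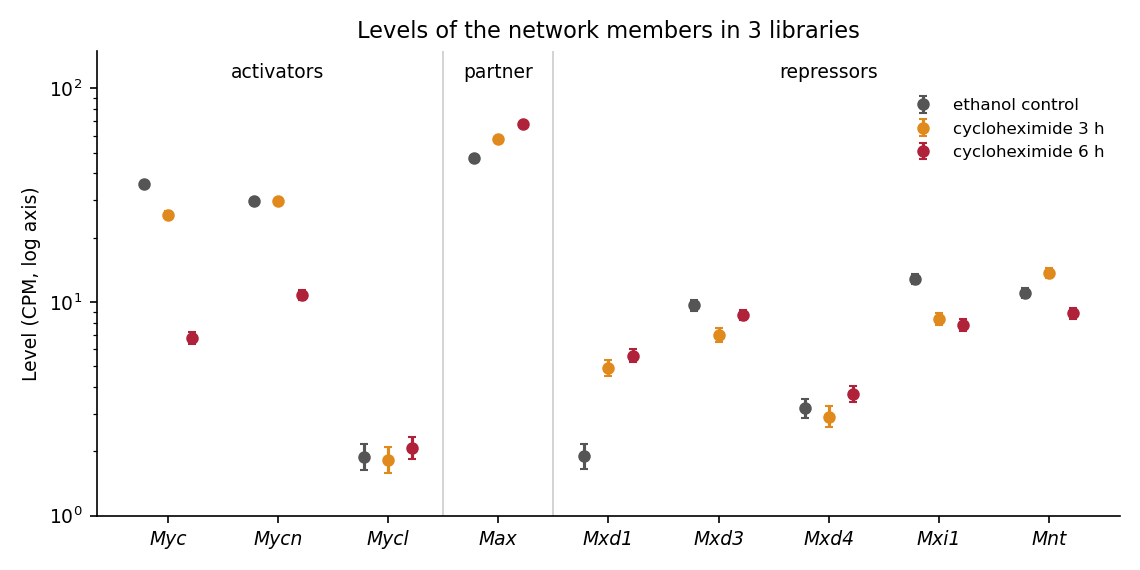
Level of each member in CPM (log axis), grouped as activators, partner and repressors, in the control, cycloheximide 3 h and cycloheximide 6 h libraries, 1 point per library, with 95% exact Poisson intervals that cover counting error only. Myc goes from 35.8 to 6.78 CPM and Mycn from 29.7 to 10.8 CPM between the control and 6 h, while Max goes from 47.2 to 67.8 CPM and Mxd1 from 1.90 to 5.61 CPM.

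Max, the obligate partner, was at 47.2, 57.9 and 67.8 CPM in the control, 3 h and 6 h libraries, with intervals of 45.9 to 48.5, 56.5 to 59.4 and 66.4 to 69.1. It had the highest CPM of the members in each library, and its intervals did not overlap between libraries. The log2 ratio to control was 0.29 after 3 h (interval 0.24 to 0.35) and 0.52 after 6 h (0.47 to 0.57), against medians of 0.13 and 0.20 over all 11049 genes above the floor. Under TMM, Max had ratios of 0.12 and 0.24, and by mean UMIs per cell 0.56 and 0.63. Max was therefore above the control under each of the 3 scalings.

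Mxd1, a repressor that in other tissues accumulates with terminal differentiation, was at 1.90 CPM in the control, 4.92 CPM after 3 h and 5.61 CPM after 6 h, from 212, 526 and 787 UMIs. Both treated libraries were above the control, with intervals of 4.51 to 5.36 and 5.22 to 6.01 against 1.65 to 2.18. Mxd1 was 2.58-fold higher after 3 h (log2 ratio 1.37, interval 1.14 to 1.61) and 2.94-fold higher after 6 h (log2 ratio 1.56, interval 1.34 to 1.79). It was the only member at least 2-fold higher in either comparison with the control. Under TMM its log2 ratios were 1.20 and 1.27. Of all genes above the floor, 6.1% were at least 2-fold higher after 3 h and 11.9% after 6 h. With 1.90 CPM in the control, Mxd1 passed the floor of 2 CPM only through the treated libraries. No weight is therefore put on this call.

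Mxi1, also called Mxd2, was at 12.8 CPM in the control, 8.36 CPM after 3 h and 7.81 CPM after 6 h. It was lower in both treated libraries, whose intervals overlapped each other (7.82 to 8.92 and 7.36 to 8.29) and not the control (12.2 to 13.5). The log2 ratio was -0.62 after 3 h (interval -0.74 to -0.50) and -0.72 after 6 h (-0.83 to -0.60), which is 1.54-fold and 1.64-fold lower. Under TMM the 6 h ratio was -1.004, which put Mxi1 past 2-fold.

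Mnt, the broadly expressed repressor that is the main antagonist of Myc in cycling cells, was at 11.0 CPM in the control, 13.6 CPM after 3 h and 8.84 CPM after 6 h. Its 3 h level was the highest and its 6 h level the lowest, with no overlap between the intervals (10.4 to 11.7, 13.0 to 14.4 and 8.35 to 9.34). The log2 ratio to control was 0.31 after 3 h (interval 0.20 to 0.42) and -0.32 after 6 h (-0.43 to -0.20), and the ratio of 6 h to 3 h was -0.63 (-0.74 to -0.52). The signs after 3 h and 6 h were opposite under CPM, TMM (0.13 and -0.60) and mean UMIs per cell (0.58 and -0.21).

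Mxd3, a member of the Mxd group known for expression in S phase, was at 9.65, 7.00 and 8.68 CPM in the control, 3 h and 6 h libraries. Its lowest level was after 3 h, with a log2 ratio to control of -0.46 (interval -0.60 to -0.33), and the 6 h ratio was -0.15 (-0.27 to -0.03). Mxd4 was at 3.19, 2.91 and 3.73 CPM. Its log2 ratio had an interval that included 0 after 3 h (-0.35 to 0.09) and was 0.23 after 6 h (0.03 to 0.43), a sign that TMM turned to -0.06.

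**Figure D2:**
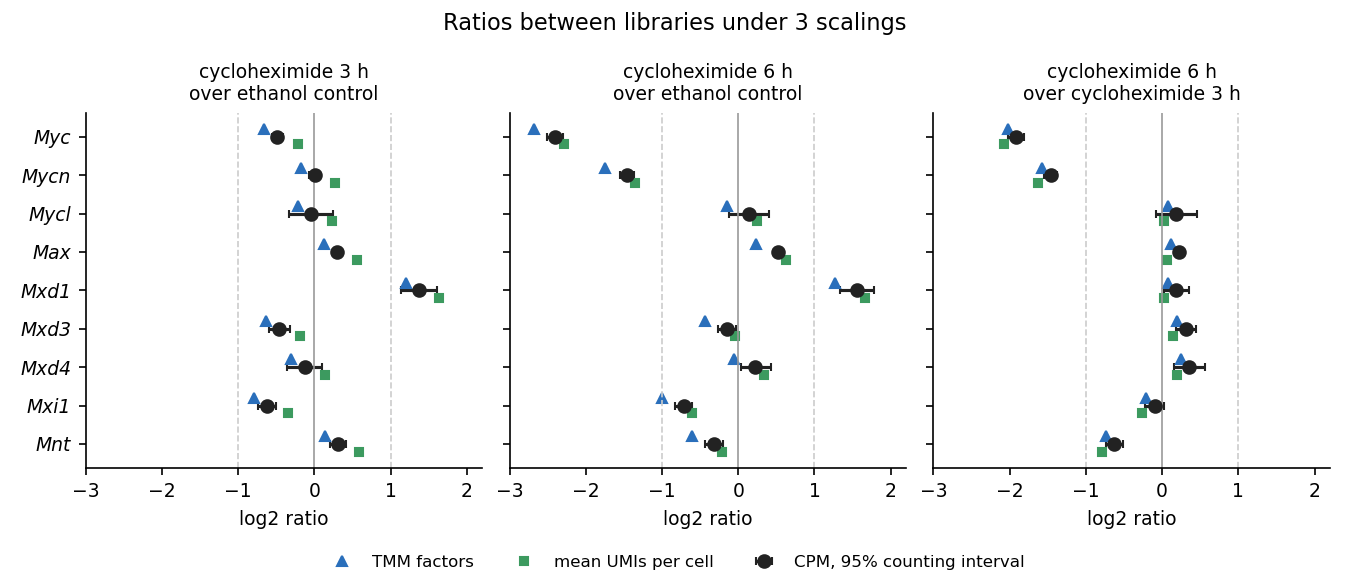
Log2 ratio of each member for 3 h over control, 6 h over control and 6 h over 3 h (1 library each), by CPM with 95% exact conditional binomial intervals (circles), TMM factors (triangles) and mean UMIs per cell (squares); dashed lines mark 2-fold. Myc and Mycn lie past the 2-fold line after 6 h against both other libraries under all 3 scalings, and Mxd1 lies past it on the higher side in both comparisons with the control.

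The comparisons of 3 h and 6 h with the control share the control library, and their values are set side by side without a correlation. After 3 h against control, 1 of 9 members (Mxd1) was at least 2-fold higher and 0 were at least 2-fold lower, where 6.1% of all 11049 genes were at least 2-fold higher and 0.733% at least 2-fold lower. After 6 h, 1 member (Mxd1) was at least 2-fold higher, where 11.9% of all genes were, and 2 members (Myc and Mycn) were at least 2-fold lower, where 2.85% of all genes were. After 6 h against 3 h, 0 members were at least 2-fold higher and the same 2 were at least 2-fold lower, where 0.715% and 0.697% of all genes were past those folds. Under TMM the shares of genes at least 2-fold higher and lower were 4.14% and 1.27% after 3 h, 7.02% and 5.96% after 6 h, and 0.471% and 0.987% for 6 h against 3 h, and 3 members were at least 2-fold lower after 6 h. Myc had the lower ratio in rank as well as size. Its percentile among all genes was 4.83 after 3 h, 0.253 after 6 h and 0.063 for 6 h over 3 h, and those of Mycn were 36.2, 1.09 and 0.172. Mxd1 stood at percentiles 97.4 after 3 h and 95.5 after 6 h, but it passed the floor only through the treated libraries.

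At a fold of 1.5, 1 member was higher and 1 was lower (Mxi1) after 3 h, beside 17.2% and 3.22% of all genes. After 6 h, 1 was higher and 3 were lower (Myc, Mycn and Mxi1), beside 26.1% and 8.78%. Between 6 h and 3 h, 0 were higher and 3 were lower (Myc, Mycn and Mnt), beside 4.62% and 2.97%. With 9 members, such counts describe these genes and do not set the network apart from others.

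**Figure D3:**
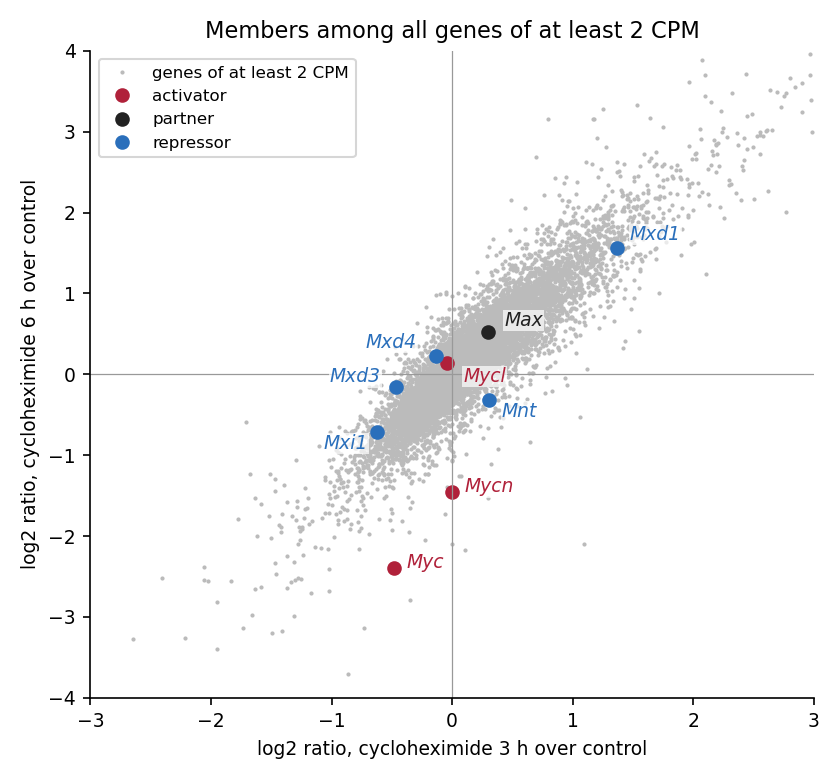
Log2 ratio of 6 h over control (vertical) against 3 h over control (horizontal) for the 11049 genes averaging 2 CPM or more (grey, 25 of them outside the axes) and the 9 members (coloured by role); both axes share the control library. Myc (-0.49, -2.40) and Mycn lie below the main band of genes, and Mxd1 (1.37, 1.56) lies at its upper right.

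Summed activators were at 67.4 CPM in the control, 57.2 CPM after 3 h and 19.6 CPM after 6 h. Summed repressors were at 38.6, 36.8 and 34.7 CPM in the same order. The activator sum was thus much lower after 6 h, while the repressor sum differed less between libraries. Its log2 ratio to control was -0.07 after 3 h and -0.16 after 6 h, and the activators had -0.24 and -1.78. After 6 h the repressor ratio was -0.44 under TMM and -0.05 by mean UMIs per cell, so its size depended on the scaling. The activator ratio after 6 h was -2.06 and -1.67 under these scalings. By mean UMIs per cell after 3 h, the activators had a log2 ratio of 0.03 and the repressors of 0.20, so the direction of either sum after 3 h depended on the scaling.

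The ratio of the sums does not depend on the scaling. Activator UMIs per repressor UMI were 1.75 in the control (interval 1.68 to 1.81), 1.55 after 3 h (1.49 to 1.62) and 0.567 after 6 h (0.541 to 0.594). Activator UMIs outnumbered those of repressors in the control and after 3 h, and repressor UMIs were in the majority after 6 h. Which side had more transcripts is not shown, because UMI counts of different genes also reflect how well each 3' end was captured. The change in log2 was -0.17 after 3 h (exact conditional interval -0.25 to -0.09) and -1.62 after 6 h (-1.71 to -1.54), a 3.08-fold lower ratio. The 3 h change rested on single members, since it was 0.01 without Mnt and 0.07 with Mycn as the only activator. Activators per Max UMI were 1.43, 0.987 and 0.290 in the control, 3 h and 6 h libraries, and repressors per Max UMI were 0.818, 0.636 and 0.512.

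The make-up of both sums differed between libraries. Myc gave 53.1% of activator UMIs in the control, 44.7% after 3 h and 34.5% after 6 h, while Mycn gave 44.1%, 52.1% and 55.0%, and Mycl 2.80%, 3.19% and 10.6%. Myc per Mycn UMI was 1.20, 0.859 and 0.628, so Mycn had more UMIs than Myc in both treated libraries. Among the repressors Mxd1 gave 4.93%, 13.4% and 16.2%, and Mxi1 gave 33.3%, 22.7% and 22.5%. Mnt gave 28.5%, 37.0% and 25.5%, the largest share after 3 h and, with Mxd3 at 25.0%, one of the largest after 6 h.

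**Figure D4:**
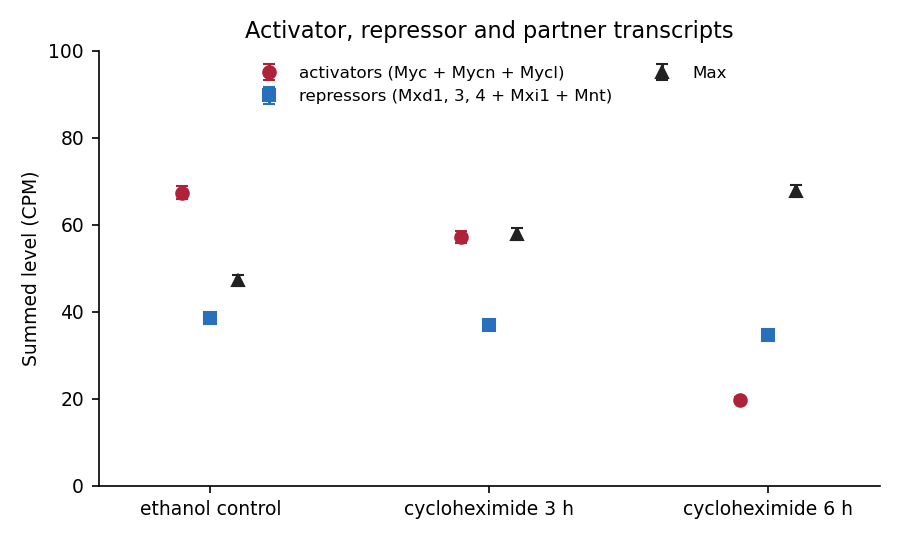
Summed level in CPM (axis from 0) of the activators (Myc, Mycn and Mycl, circles), the repressors (Mxd1, Mxd3, Mxd4, Mxi1 and Mnt, squares) and Max (triangles) in the control, cycloheximide 3 h and cycloheximide 6 h libraries, 1 library each, with 95% exact Poisson intervals. The activators go from 67.4 to 19.6 CPM between the control and 6 h, below the repressors, which go from 38.6 to 34.7 CPM, while Max goes up to 67.8 CPM.

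Because 3' counting records 1 tag per captured molecule, CPM values were not scaled by transcript length, and the order of the genes also reflects how well each 3' end was captured. In the control the order was Max, Myc, Mycn, Mxi1, Mnt, Mxd3, Mxd4, Mxd1 and Mycl, and the intervals of neighbours overlapped between Mxd1 and Mycl alone. After 3 h it was Max, Mycn, Myc, Mnt, Mxi1, Mxd3, Mxd1, Mxd4 and Mycl, with no overlap between neighbours. After 6 h it was Max, Mycn, Mnt, Mxd3, Mxi1, Myc, Mxd1, Mxd4 and Mycl, where Mnt overlapped Mxd3 and Mxd3 overlapped Mxi1. Myc was the second in the control, the third after 3 h and the sixth after 6 h.

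Shares of cells with a UMI were measured after each cell was thinned to 15000 UMIs, which left out no cell. Myc was seen in 39.6% of control cells, 30.2% of cells after 3 h and 9.01% after 6 h, and without thinning in 72.8%, 64.3% and 26.4%. Mycn was seen in 33.6%, 35.0% and 13.9% of thinned cells (68.5%, 71.7% and 37.1% unthinned), and Max in 48.1%, 59.7% and 62.2% (83.7%, 91.8% and 91.6%). Mxd1 was seen in 2.15%, 6.84% and 8.22% (9.01%, 24.4% and 24.8%). The thinned shares followed the order of the summed levels for these 4 genes. Cells were not assigned to types, so cell types that should lack these 4 genes were not looked for. Free RNA held Mycn at 36.1, 29.7 and 10.5 CPM, Max at 52.5, 54.2 and 66.1 CPM, and Mxd1 at 1.67, 3.93 and 5.36 CPM. The part of free RNA in these shares was not tested. The other repressors ranged from 4.02% (Mxd4) to 16.7% (Mxi1) of thinned cells in the control and from 5.32% (Mxd4) to 11.9% (Mnt) after 6 h.

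Cells with 2 or more Myc UMIs after thinning made up 11.7% of the control, 6.10% after 3 h and 0.666% after 6 h (17 of 2554 cells, Clopper-Pearson interval 0.388 to 1.06%). At least 1 activator UMI was present in 60.9%, 54.7% and 23.6% of cells, and at least 1 repressor UMI in 41.7%, 41.6% and 38.4%. Cells with a repressor UMI and no activator UMI made up 16.7%, 19.7% and 30.2%, and cells with an activator UMI and no repressor UMI 35.9%, 32.8% and 15.4%. Fewer cells with the transcript and fewer copies per cell cannot be told apart at about 1 UMI per cell or less. The Fano factor of Myc (variance over mean, which is 1 for pure counting) was 1.16, 1.22 and 1.07 in the control, 3 h and 6 h libraries.

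Myc and Mycn were seen in the same cells about as often as their separate shares multiply to. Both were present in 13.5% of control cells, where the product of the shares was 13.3%. After 3 h the values were 11.3% and 10.6%, and after 6 h 1.29% and 1.25%. Activator and repressor UMIs occurred together in 25.0%, 21.9% and 8.22% of cells, against products of 25.4%, 22.8% and 9.08%. Counts are too sparse for these values to show whether the transcripts exclude or accompany each other.

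Cells of each library were next placed in 3 groups of nearly equal size by the summed share of 14 S phase genes or of 14 G2M genes, and the thinned counts of members were summed in each. In the control, Myc was at 29.5, 33.5 and 46.3 CPM in the groups with the lowest, middle and highest S phase share, a log2 ratio of highest to lowest of 0.65 (interval 0.44 to 0.85). Mycn ran the other way, at 33.8, 28.3 and 25.1 CPM, a log2 ratio of -0.43 (-0.66 to -0.20). By G2M share, control Myc was at 40.9 CPM in the lowest and 31.5 CPM in the highest group (log2 ratio -0.38, -0.58 to -0.17), and Mycn at 25.2 and 32.8 CPM (0.38, 0.15 to 0.61). The 2 paralogues thus sat at opposite ends of both orderings in the control. The groups differed in depth before thinning, with median UMIs per cell of 46197, 46473 and 37408 by S phase share and of 36547, 44036 and 50815 by G2M share, and the part of depth was not tested. The cells of a library are not replicates, and intervals again cover counting error only.

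In the treated libraries the S phase ratios of Myc and Mycn had intervals that included 0. By S phase share, the Myc log2 ratio of highest to lowest was 0.24 after 3 h (interval -0.03 to 0.51) and 0.12 after 6 h (-0.33 to 0.57), and that of Mycn was 0.15 (-0.10 to 0.39) and -0.09 (-0.44 to 0.26). By G2M share Myc had 0.38 after 3 h (0.11 to 0.66), opposite in sign to the control, and 0.02 after 6 h (-0.43 to 0.47). Differences between libraries in these ratios were not tested.

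By S phase share, Mxd3 was at 11.1 CPM in the lowest and 7.96 CPM in the highest group of the control (log2 ratio -0.47, interval -0.89 to -0.07), and its ratios after 3 h (-0.55 to 0.51) and 6 h (-0.50 to 0.37) had intervals that included 0. By G2M share it had a ratio above 0 in each library. It was at 6.77 CPM in the lowest and 11.8 CPM in the highest group of the control (log2 ratio 0.80, interval 0.38 to 1.23), at 5.17 and 8.41 CPM after 3 h (0.69, 0.15 to 1.27), and at 5.56 and 10.7 CPM after 6 h (0.93, 0.52 to 1.37). The repressor sum, which includes Mxd3, was higher in the highest G2M group in each library. Its log2 ratio was 0.39 in the control (0.18 to 0.59), 0.48 after 3 h (0.25 to 0.71) and 0.45 after 6 h (0.26 to 0.65). Median UMIs per cell in the lowest and highest G2M groups were 47190 and 57920 after 3 h. After 6 h they were 39775.5 and 56082, and the part of depth was not tested. Among cells ordered by Nanog share, control Myc was at 40.3 CPM in the lowest and 33.4 CPM in the highest group (log2 ratio -0.27, -0.48 to -0.07). Nanog is the pluripotency factor whose level varies between cells in serum. After 3 h and 6 h the intervals of this Myc ratio included 0. The Nanog ordering was not particular to Myc. In the control Mxd3 had a log2 ratio of 0.47 (0.06 to 0.88) and Mxd4 of -0.88 (-1.73 to -0.09). The control repressor sum had 0.22 (0.01 to 0.42). Mycn had 0.23 in the control (4.57e-05 to 0.45) and -0.38 after 6 h (-0.74 to -0.03).

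**Figure D5:**
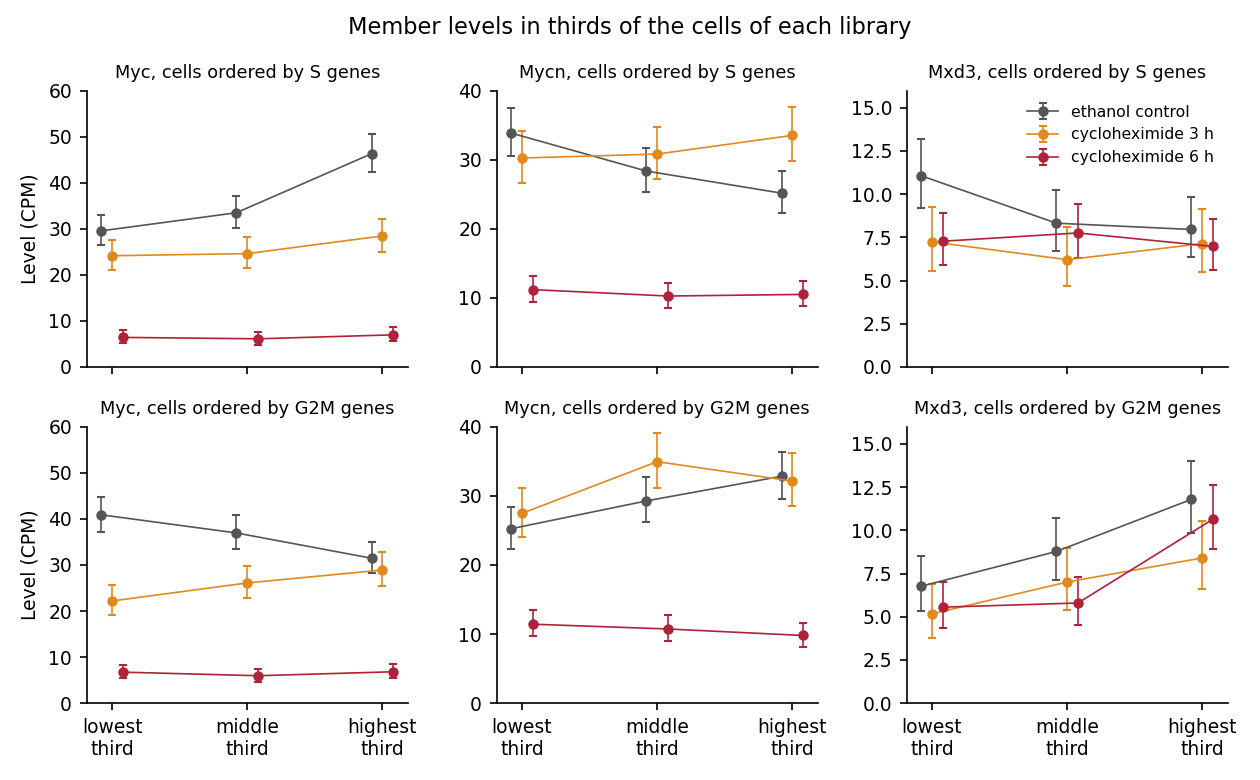
Level of Myc, Mycn and Mxd3 in CPM, from cells thinned to 15000 UMIs, in 3 groups of nearly equal size (lowest, middle and highest) of the cells of each library, ordered by S phase share (upper row) or by G2M share (lower row); error bars are 95% exact Poisson intervals of 1 library each. In the control Myc goes up from 29.5 to 46.3 CPM and Mycn down from 33.8 to 25.1 CPM along the S phase share, and Mxd3 goes up along the G2M share in each library.

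The pentamer ATTTA, the core of AU-rich elements that mark many unstable messenger RNAs, was counted in the 3' untranslated region of 1 GENCODE transcript per gene. Myc had 2 in 442 bases, 4.52 per kb, more densely than 89.9% of 20510 genes. Mycn had 1 in 913 bases, 1.10 per kb, near the median of all genes of 1.15 per kb. Mxi1 and Mxd1 each had 5, in 1557 and 3829 bases, and Mxd3 and Mxd4 had 0. The density was 3.21 per kb in Mxi1, at percentile 80.5, and 1.31 per kb in Mxd1. Mycl had 2 in 1970 bases, and Max and Mnt had 1 each. The longer sequence TATTTAT occurred 2 times in Mxd1, 1 time each in Max and Mnt, and in 25.6% of all genes. Myc and the other members had 0.

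Genes with the most similar pair of ratios to control were sought among 5569 genes averaging 20 CPM or more, by Euclidean distance on the log2 scale. The nearest to Myc were Spry2, an inhibitor of receptor tyrosine kinase signalling (90.0, 70.5 and 13.0 CPM in the control, 3 h and 6 h libraries), Noct, a circadian phosphatase (81.2, 69.6 and 19.7 CPM), and F2rl1, a protease-activated receptor (38.5, 27.2 and 10.2 CPM). Their distances were 0.41, 0.44 and 0.48, and 0 genes lay within 0.2 of Myc. Mycn had 1 gene within 0.2, the inositol phosphate kinase gene Itpk1 (89.6, 87.2 and 34.2 CPM), followed by Enc1 and the Wnt receptor gene Fzd5 at distances of 0.21 and 0.27. Mxd1 had 21 genes within 0.2, of which Mul1, the linker histone gene Hist1h1e and Pvt1 were the nearest, at 0.055, 0.059 and 0.064. Mul1 and Pvt1, at 18.6 and 17.0 CPM in the control, passed the limit of 20 CPM only through the treated libraries. Hist1h1e was at 139 CPM in the control.

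Pvt1 is a long noncoding RNA gene beside Myc, spanning 62037986 to 62378096 on the plus strand of chromosome 15, 47.6 kb past the end of Myc. It was at 17.0 CPM in the control, 42.8 CPM after 3 h and 51.9 CPM after 6 h, higher in both treated libraries, where Myc was lower.

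Of the wider network, the genes for Mlx and Mga, parallel factors that use Mlx or Max as partner, were at 51.0, 56.9 and 62.0 CPM and at 90.0, 110 and 114 CPM in the control, 3 h and 6 h libraries. These and Mlxip were within 2-fold of the control. Mlxipl, named here after its values were seen, was the 1 of 4 branch genes at least 2-fold higher after 6 h (1.41, 1.63 and 3.39 CPM). Its mean of 2.14 CPM passed the floor of 2 CPM only through the 6 h library. The floor therefore favours this call, and no weight is put on it. Of 17 corepressor genes, 1 was at least 2-fold higher after 6 h, Arid4a (45.4, 95.6 and 136 CPM), and 1 was at least 2-fold lower, Sin3a (63.8, 42.0 and 27.2 CPM), which encodes the scaffold that Mxd proteins bind. Sap30, a subunit of the Sin3 complex, was at 139, 186 and 268 CPM, and the deacetylase gene Hdac2 at 105, 92.9 and 90.2 CPM. Of all genes, 11.9% and 2.85% were past these folds, shares that 1 of 17 genes is close to. The median log2 ratio of the corepressors was 0.07 after 3 h and 0.08 after 6 h, below the 0.13 and 0.20 of all genes. Under TMM it was -0.10 and -0.20, where all genes had -0.05 and -0.09.

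Of 14 coactivator genes, 0 were past 2-fold after 3 h or 6 h, where 6.1% and 11.9% of all genes were at least 2-fold higher and 0.733% and 2.85% at least 2-fold lower. Their medians were 0.04 and 0.02 by CPM, and -0.14 and -0.27 under TMM. Those of all genes were 0.13 and 0.20 by CPM, and -0.05 and -0.09 under TMM. The highest ratio after 6 h was that of Ccnt1, a subunit of the elongation factor P-TEFb (45.2, 75.6 and 75.5 CPM), followed by Ep300 with a log2 ratio of 0.50. The lowest was that of Trrap, the scaffold of acetyltransferase complexes that Myc binds (34.0, 30.4 and 26.2 CPM), next to Ruvbl1 at -0.32. Of 12 regulators of Myc protein, 0 were past 2-fold. Zbtb17, which encodes the Myc partner Miz1, was at 8.80, 11.4 and 13.7 CPM, the ubiquitin ligase gene Huwe1 at 195, 146 and 114 CPM, and the deubiquitinase gene Usp28 at 22.5, 19.7 and 19.2 CPM. The median of this list was 0.08 after 3 h and 0.22 after 6 h. TMM turned the latter to -0.06, beside -0.09 for all genes.

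Among 28 genes known as Myc targets, 0 were at least 2-fold higher at either time, 1 was at least 2-fold lower after 3 h and 2 were after 6 h. The shares of all genes were 6.1% and 11.9% on the higher side and 0.733% and 2.85% on the lower side. The 1 after 3 h was Ccnd2, a D-type cyclin named here after its values were seen (12.0, 4.48 and 3.10 CPM), and after 6 h it was joined by Gnl3, the gene for nucleostemin (349, 304 and 171 CPM). The mitochondrial chaperonin gene Hspd1 was at 1522, 1219 and 813 CPM. On the other side, Nop56, a core protein of box C/D small nucleolar ribonucleoproteins, was at 381, 614 and 739 CPM, and Cdc25a, a phosphatase that activates cyclin-dependent kinases, at 51.9, 76.5 and 87.3 CPM. The median log2 ratio of the targets was 0.0086 after 3 h and 0.03 after 6 h, with 14 and 15 of 28 above 0, where 64.1% and 64.7% of all genes were above 0. The sign of this median depended on the scaling, with -0.17 and -0.26 under TMM and 0.28 and 0.13 by mean UMIs per cell.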

How the data were processed

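Per the file headers, the deposited values of the 3 matrices are raw UMI counts from Cell Ranger 4, given for each gene in each barcode. The submitters' processing notes name Cell Ranger 4.0.0 and build mm10. The authors deposited all 6794880 barcodes of each library, without cell calls. The annotation and the treatment of overlapping genes are not given in the sources used here. Coordinates are those of GENCODE M21, matched by identifier for 32158 of 32285 genes.

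UMI counts were summed over cells (barcodes of at least 15000 UMIs with 1 to 20% mitochondrial UMIs) and scaled to CPM. Log2 ratios used a prior of 0.5 counts, and all-gene values a floor of a mean of 2 CPM. No doublets were removed and no doublet caller was run. With 1 library per group there was no test. Intervals are exact Poisson (levels), exact conditional binomial (ratios), exact conditional (changes of a ratio of sums) and Clopper-Pearson (shares), at 95%, and leave out variation between cultures and preparations. The ratio script was tested on simulated data.

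Named genes were all 9 members, the 2 highest and 2 lowest ratios at 6 h of each wider list above a mean of 10 CPM, and the 3 genes above 20 CPM nearest to each member at least 2-fold different at 6 h. One gene that this rule names is not reported here. Members and lists were chosen with earlier results of these data known. Alternatives covered scaling, cell limits, free RNA, thinning, floor, prior, fold and membership of the sums. R 4.3.3 with edgeR 4.0.16 (TMM factors only) and Python 3.11.15 with numpy 2.4.6, scipy 1.17.1, pandas 2.3.3 and matplotlib 3.10.9 were used.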

Additional observations from a re-analysis of the deposited data

Results flagged for a closer look

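Mnt moved in opposite directions at the 2 times, its log2 ratio to control being 0.31 after 3 h and -0.32 after 6 h, which differ by -0.63. The difference was not tested, because each time had 1 library and both ratios share the control.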

How the results depend on the processing

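Of 216 member ratios under other cell limits, free RNA subtraction, thinning or prior, 210 kept their sign. TMM factors turned the sign of 11 of 15 list medians, that of the regulators of Myc protein at 6 h to -0.0632. They also turned the medians of all genes, to -0.05 at 3 h and -0.09 at 6 h against control. Mxd4 at 6 h was turned to -0.0605, and Mxi1 at 6 h was brought to -1.004. TMM also turned Mycn at 3 h to -0.17 and Mycl at 6 h to -0.15. Mean UMIs per cell turned Mycl and Mxd4 at 3 h to 0.22 and 0.14. The CPM intervals of the ratios in these last 2 sentences included 0. At 3 h the change in log2 activators over repressors was 0.0126 without Mnt, -0.0419 without Mycl and Mxd1, 0.0701 with Mycn alone and -0.42 with Myc alone as activator. At 6 h against control it was -1.73 with thinned cells, -1.31 with Mycn alone and -2.25 with Myc alone, and at 6 h against 3 h it was -1.55 with thinned cells, -1.70 without Mnt and -1.83 with Myc alone. At a fold of 1.5, 1 member was lower at 3 h in place of 0. Counts of members past 2-fold were within 1.5 times the reported ones under the scaling, cell, free RNA and thinning alternatives. Under TMM, 7.02% of genes were at least 2-fold higher and 5.96% at least 2-fold lower at 6 h, and by mean UMIs per cell 12.1% were at least 2-fold higher at 3 h. Without a floor the share at least 2-fold higher was 17.6% at 3 h and 28.6% at 6 h. Shares of cells with a UMI were higher in every library without thinning, so they hold for the stated depth only. No paired analysis was possible because each group has 1 library and no test was made. Depth limits Mycl, Mxd1 and Mxd4 most, with 195 to 787 UMIs per library.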
